A study of Mus musculus with 4 samples.

Results

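The genes that shape mitochondria and mark them for removal were examined in lungs carrying metastases of 4T1, a mouse TNBC cell line. The 10 genes, chosen by name from the 56748 genes counted, were the fusion genes Mfn1, Mfn2 and Opa1, the fission genes Dnm1l, Fis1 and Mff, and the mitophagy genes Pink1, Fundc1, Bnip3 and Bnip3l. Bulk RNA sequencing of 2 saline and 2 ADC/cmLumiOpto samples was analyzed. All mice were BALB/cJ females with an intact immune system, and were 7 weeks old when luciferase-expressing 4T1-FLuc cells were injected into the tail vein. Control mice received saline (PBS in the sample labels). Treated mice received an antibody against CD276 coupled to mertansine (DM1), which blocks microtubules, together with the gene therapy cmLumiOpto. For the antibody conjugate the labels give 16 mg/kg and the paper's methods a lower dose, and the labels add the abbreviation Olap without explaining it. cmLumiOpto is an AAV packed in antibody-tagged exosomes, in which a cfos promoter drives a luciferase and a light-gated channel of the inner mitochondrial membrane, and the substrate ViviRen supplies the light. The source is given as tumor cells from the lung in the labels and as dissociated lung in the paper's methods.

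Mitochondria form a network that is remodeled by large GTPases. The mitofusins Mfn1 and Mfn2 join outer membranes and Opa1 joins inner membranes and holds the cristae, whereas the dynamin-like GTPase Drp1, encoded by Dnm1l, is recruited by outer membrane adaptors such as Mff to divide the organelle. After loss of membrane potential, the protease Oma1 cleaves Opa1 and the kinase Pink1 is stabilized on the outer membrane, where it marks the organelle for removal. Fundc1, Bnip3 and Bnip3l (Nix) are receptors that bind the autophagosome directly, and Bnip3 and Bnip3l are known targets of hypoxia-inducible factor 1. Much of this regulation acts on the proteins, which RNA counts do not show.

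Promoter sequences are shown for the 3 genes with the smallest p between the groups, Opa1, Dnm1l and Fis1, and for Bnip3 as a hypoxia-regulated receptor. Each is the 250 bases before a RefSeq transcription start, written 5′ to 3′ on the strand of the gene in build GRCm38.p6. In the Opa1 line, the capitals are the whole searched motif of nuclear respiratory factor 1 (NRF1), a regulator of nuclear genes for mitochondrial proteins. In the Bnip3 line, the capitals mark matches on either strand to the cores of the hypoxia response element.
Opa1 promoter, chr16:29579084-29579333 (+ strand): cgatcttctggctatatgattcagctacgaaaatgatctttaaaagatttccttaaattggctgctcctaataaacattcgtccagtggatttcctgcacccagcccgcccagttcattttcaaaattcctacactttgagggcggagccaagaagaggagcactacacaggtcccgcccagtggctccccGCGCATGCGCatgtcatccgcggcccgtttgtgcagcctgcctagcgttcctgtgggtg
Dnm1l promoter, chr16:16359032-16359281 (- strand): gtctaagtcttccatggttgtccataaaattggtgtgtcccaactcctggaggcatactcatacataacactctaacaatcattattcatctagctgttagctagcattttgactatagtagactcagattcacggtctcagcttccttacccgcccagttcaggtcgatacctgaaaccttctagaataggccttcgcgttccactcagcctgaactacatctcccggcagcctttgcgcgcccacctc
Fis1 promoter, chr5:136953025-136953274 (+ strand): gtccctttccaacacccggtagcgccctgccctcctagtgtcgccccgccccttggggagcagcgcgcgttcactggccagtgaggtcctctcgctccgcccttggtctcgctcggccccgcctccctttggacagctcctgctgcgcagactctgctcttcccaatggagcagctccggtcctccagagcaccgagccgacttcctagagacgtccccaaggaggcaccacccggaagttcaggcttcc
Bnip3 promoter, chr7:138909507-138909756 (- strand): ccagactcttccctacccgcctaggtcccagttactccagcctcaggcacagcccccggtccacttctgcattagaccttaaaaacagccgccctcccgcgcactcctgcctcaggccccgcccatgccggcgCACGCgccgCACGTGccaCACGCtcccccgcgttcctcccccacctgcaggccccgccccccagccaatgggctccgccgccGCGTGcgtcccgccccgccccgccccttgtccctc

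A RefSeq promoter was found for 9 of the 10 genes. The Opa1 promoter held 1 match to the NRF1 motif, which occurs in 0.784% of 32536 promoter windows of the same length, and the other 8 promoters held none. The first hypoxia core searched, ACGTG, occurs in 16.7% of the windows and matched the Bnip3 promoter 2 times, once on each strand of a single E-box. The E-box, which contains this core, is the palindrome CACGTG and occurs in 6.04% of the windows. The second core, GCGTG, occurs in 28.3% of the windows. It matched the Bnip3 promoter 3 times and those of Mfn2 and Pink1 once each. The promoters of Opa1, Dnm1l, Fis1, Mff, Mfn1 and Fundc1 held neither core. For Fundc1 the RefSeq start was 318 bases from the start in the GRCm38 gene annotation, and the window lay inside the annotated gene. The sequence before the annotated start of Fundc1 was therefore searched for none of these motifs.

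Samples held 15263375 to 19675436 counts in total, and the 10 genes had between 845 and 4359 counts each per sample. The paper's methods call the samples biological samples without tying each to a mouse, and state more of them per group than the 2 analyzed here. The p-values measure the spread between these samples. Markers of the carcinoma epithelium and of the alveolar epithelium were both present in every sample. Summed over 6 markers, alveolar epithelium was at 331 to 1565 CPM (TMM-normalized counts, scaled to library size) in the saline samples. In the treated samples it was at 4893 to 5715 CPM, with 6 of 6 markers higher. Here a marker is called higher or lower where the groups did not overlap, which held for 28.1% and 28.8% of all tested genes. Leukocyte markers were at 489 to 759 CPM against 1000 to 1277 CPM (5 of 6 higher), erythroid markers at 352 to 1110 CPM against 1872 to 2076 CPM (5 of 6 higher), and fibroblast markers at 3466 to 5071 CPM against 1397 to 1722 CPM (5 of 6 lower). Carcinoma epithelium markers were at 2738 to 3092 CPM against 2552 to 2652 CPM, with 2 of 6 lower and 1 higher. T cell markers were at 11.7 to 33.4 CPM under saline and 35.8 to 74.6 CPM under treatment (3 of 6 higher). For the summed endothelium, macrophage and cardiac muscle markers the groups overlapped. Taken singly, 4 of 6 endothelium markers were higher and 0 lower. For macrophages 2 of 6 were higher and 1 lower, and for cardiac muscle 1 of 6 was higher and 1 lower. Neutrophil markers stood at 7853 CPM in ADC/cmLumiOpto sample 2 and at 464 to 1141 CPM in the other samples. The part of these cell types in the values of the 10 genes was not tested, and in bulk samples fewer cells of a type and less RNA per cell cannot be told apart.

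All 10 genes passed the expression filter, and 0 of them reached an adjusted p under 0.05 in edgeR's quasi-likelihood test, where 0.0% of 15320 tested genes did. The lowest adjusted p among the 10 was 0.149. In the edgeR exact test 0 of the 10 passed against 7.64% of all genes. In DESeq2 it was 0 of the 10 against 9.99% of the 13537 genes to which it gave an adjusted p. Without the filter 0 of the 10 passed against 8.84%, and with a replicate block 0 of the 10 against 3.96%. At an unadjusted p under 0.05 there were 3 of the 10, against 23.2% of all genes. Fis1 was the higher one (background 11.0%) and Opa1 and Dnm1l the lower ones (background 12.2%). The groups did not overlap for 5 of the 10 genes, 2 higher (background 28.1%) and 3 lower (28.8%), whereas 57.0% of all genes did not overlap. Both shares were near the background. The median log2 fold change of the 10 genes was -0.024, beside 0.028 for all tested genes.

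**Figure D1:**
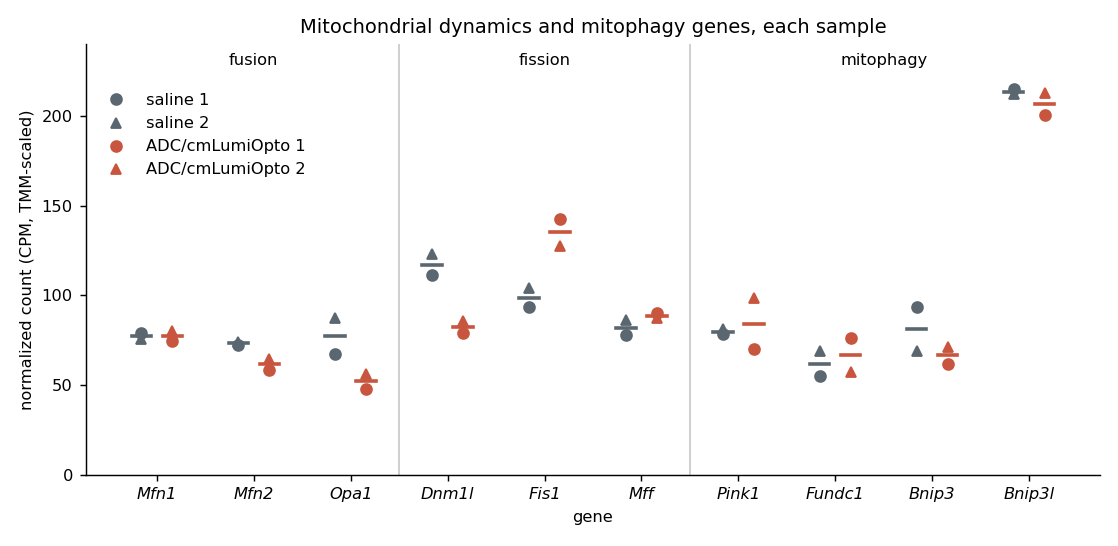
Normalized counts (CPM, linear axis from 0) of the 10 genes in each sample, with circles for sample 1, triangles for sample 2 and bars for the group means. Opa1, Dnm1l and Mfn2 lay lower and Fis1 and Mff higher in both ADC/cmLumiOpto samples than in both saline samples, and Bnip3l stood between 201 and 215 CPM throughout.

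Per kilobase of exon, the order of the levels in the saline group was Fis1 (57.6 ± 4.54 CPM per kilobase, SD, n = 2), Bnip3l (55.3 ± 0.515), Bnip3 (35.9 ± 7.59), Pink1 (29.8 ± 0.694), Fundc1 (26.3 ± 4.23), Dnm1l (22.5 ± 1.55), Mfn2 (14.1 ± 0.185), Mfn1 (12.6 ± 0.407), Opa1 (9.80 ± 1.79) and Mff (8.40 ± 0.583). Over all 4 samples, neighbours in this order overlapped except for Bnip3l over Bnip3, Dnm1l over Mfn2, and Mfn1 over Opa1. In the ADC/cmLumiOpto group, Fis1 stood at 78.8 ± 6.35 CPM per kilobase (SD, n = 2), and Mff (9.07 ± 0.203) lay above Opa1 (6.61 ± 0.744).

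Among the fusion genes, the inner membrane GTPase gene Opa1 had the largest difference and the mitofusin genes smaller ones. Opa1 (ENSMUSG00000038084, chromosome 16, 29579334 to 29654884 in GRCm38, plus strand) was at 67.2 and 87.1 CPM under saline and 47.9 and 56.2 CPM under ADC/cmLumiOpto. The treated pair lay below the saline pair, and the saline samples differed from each other by more than the gap between the groups. Its log2 fold change was -0.57 (95% interval -1.04 to -0.10), with an adjusted p = 0.166 by edgeR's quasi-likelihood test and 0.073 to 0.616 over the alternatives. Without saline sample 2 it was -0.37.

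Mfn2 (ENSMUSG00000029020, chromosome 4, 147873599 to 147904704, minus strand), which also tethers mitochondria to the endoplasmic reticulum, was at 72.5 and 73.9 CPM under saline and 58.5 and 64.6 CPM under treatment. The groups did not overlap, and the log2 fold change was -0.25 (95% interval -0.63 to 0.13, adjusted p = 0.375 in edgeR). Mfn1 (ENSMUSG00000027668, chromosome 3, 32529465 to 32579239, plus strand), the other mitofusin, was at 79.1 and 75.6 CPM under saline and 74.5 and 80.2 CPM under treatment. The groups overlapped around equal means of 77.3 CPM. The 95% interval of its fold was 0.769 to 1.30.

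Of the fission genes, the GTPase gene Dnm1l lay lower and the outer membrane protein gene Fis1 higher. Dnm1l (ENSMUSG00000022789, chromosome 16, 16312230 to 16358959, minus strand) was at 111 and 123 CPM under saline and 78.9 and 85.6 CPM under ADC/cmLumiOpto. The gap between the groups was larger than the spread within either. The log2 fold change was -0.51 (95% interval -0.90 to -0.12), with an adjusted p = 0.149 in edgeR and 0.087 to 0.573 over the alternatives.

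Fis1 (ENSMUSG00000019054, chromosome 5, 136953275 to 136966234, plus strand) was at 93.2 and 104 CPM under saline and 143 and 127 CPM under treatment. The treated pair lay above the saline pair by more than either pair spread. The log2 fold change was 0.45 (95% interval 0.054 to 0.85), with an adjusted p = 0.179 in edgeR and 0.132 to 0.532 over the alternatives. Mff (ENSMUSG00000026150, chromosome 1, 82724890 to 82752394, plus strand), an adaptor for Drp1, was at 78.0 and 86.0 CPM under saline and 89.9 and 87.1 CPM under treatment. The treated samples were the higher ones by a margin smaller than the spread of the saline pair, and the log2 fold change was 0.11 (95% interval -0.27 to 0.49, adjusted p = 0.705 in edgeR).

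**Figure D2:**
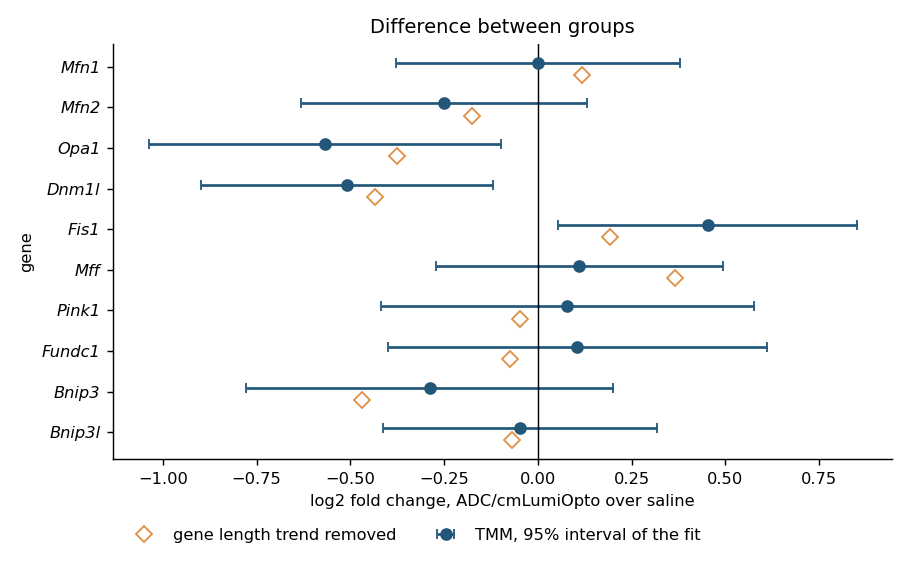
Log2 fold change of each gene, ADC/cmLumiOpto over saline, with the 95% interval of the edgeR fit (filled circles, bars) and the value after removal of the trend on gene length (open diamonds). The intervals of Opa1, Dnm1l and Fis1 exclude 0, and the value of Fis1 moves from 0.45 to 0.19 with the trend removed.

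Over all tested genes, log2 fold change and exonic length were negatively related (Spearman's rho -0.34, a description over genes that share the same 4 samples), and the 10 genes ranged from 1714 bases for Fis1 to 9757 bases for Mff. With this trend removed from each sample, the log2 fold change of Dnm1l was -0.43, that of Opa1 -0.38 and that of Fis1 0.19. Mff, the longest, stood at 0.365 and Bnip3 at -0.47. The number of the 10 genes at an unadjusted p under 0.05 was then 1, beside 19.8% of all genes, and that gene was Dnm1l.

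The groups overlapped for all 4 mitophagy genes. Bnip3l (ENSMUSG00000022051, chromosome 14, 66985239 to 67008877, minus strand), the receptor that clears mitochondria from maturing red cells, was at 215 and 212 CPM under saline and 201 and 213 CPM under treatment. Treated sample 1 was slightly below the other 3 samples. The log2 fold change was -0.047 with a 95% interval of -0.41 to 0.32 (adjusted p = 0.879 in edgeR). The processed pseudogene Bnip3l-ps, which can share reads with it, had 187 and 160 counts under saline and 229 and 292 counts under treatment.

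Bnip3 (ENSMUSG00000078566, chromosome 7, 138890836 to 138909519, minus strand) was at 93.4 and 69.1 CPM under saline and 61.8 and 71.2 CPM under treatment. Saline sample 1 stood above the other 3 samples, and the log2 fold change of -0.29 (95% interval -0.78 to 0.20, adjusted p = 0.423 in edgeR) was -0.067 without it. Fundc1 (ENSMUSG00000025040, chromosome X, 17556564 to 17572325, minus strand), a hypoxia-linked receptor, was at 54.9 and 69.0 CPM under saline and 76.0 and 57.2 CPM under treatment. The groups were interleaved, and the log2 fold change was 0.11 (95% interval -0.40 to 0.61).

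The kinase gene Pink1 (ENSMUSG00000028756, chromosome 4, 138313409 to 138326307, minus strand) was at 78.4 and 81.0 CPM under saline and 69.8 and 98.5 CPM under treatment. The treated samples lay on either side of the saline pair, so that the log2 fold change of 0.079 (95% interval -0.42 to 0.58) was -0.20 without ADC/cmLumiOpto sample 2 and 0.31 without sample 1. Sample 2 was the one with the high neutrophil markers, whose part in this value was not tested.

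Ratios within a sample do not depend on how the libraries are scaled. Per kilobase, Mfn1 was at 0.926 and 0.869 of Mfn2 under saline and at 1.08 and 1.05 under treatment, on opposite sides of 1. The crossing of 1 depends on the division by length, since in CPM Mfn1 was above Mfn2 in all 4 samples. Under saline it was at 79.1 and 75.6 CPM against 72.5 and 73.9, and under treatment at 74.5 and 80.2 CPM against 58.5 and 64.6. The 3 fusion genes summed to 0.423 and 0.404 of the 3 fission genes under saline and to 0.274 and 0.328 under treatment. The difference was -0.46 on the log2 scale and -0.30 without division by length. With the length trend removed, the log2 fold changes of the fusion genes were 0.12 (Mfn1), -0.18 (Mfn2) and -0.38 (Opa1). Those of the fission genes were -0.43 (Dnm1l), 0.19 (Fis1) and 0.365 (Mff). The ratio itself was not computed with that trend removed. Per kilobase, Fis1 was the largest part of the fission sum. Under saline it was at 57.6, beside 22.5 for Dnm1l and 8.40 for Mff. Under treatment these stood at 78.8, 15.8 and 9.07, so the ratio per kilobase depends most on Fis1. The order under saline depends on the division by length. In mean CPM, Dnm1l was the largest part under saline (117, beside 98.7 for Fis1 and 82.0 for Mff). Under treatment it was Fis1 (135, beside 82.3 for Dnm1l and 88.5 for Mff). Per kilobase, Mff was at 0.147 and 0.145 of Fis1 under saline against 0.111 and 0.120 under treatment, a difference of -0.34 on the log2 scale. This pair joins exonic lengths of 9757 bases for Mff and 1714 bases for Fis1. With the length trend removed, the log2 fold changes were 0.365 for Mff and 0.19 for Fis1. The lower ratio of Mff to Fis1 under treatment therefore did not hold without that trend. For Bnip3 to Bnip3l the ratio was 0.740 and 0.555 against 0.525 and 0.571, and the groups overlapped. The smallest two-sided p of an exact permutation test with 2 samples per group is 0.333, so the 5 ratios are given without a test.

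Of the 5 ratios, that of Opa1 to Oma1, the gene of the stress-activated protease that cleaves its protein, had the largest log2 difference. The spread within groups was also the largest for this ratio (log2 SD 0.351 under saline and 0.319 under treatment). Oma1 (ENSMUSG00000035069) was counted 142 and 121 times under saline and 320 and 319 times under treatment. Its log2 fold change was 0.98 (95% interval 0.39 to 1.58), and its adjusted p was 0.123 by edgeR's quasi-likelihood test, 0.041 by the exact test and 0.026 by DESeq2 (0.026 to 0.452 over all alternatives). Per kilobase, Opa1 stood at 2.06 and 2.91 times Oma1 under saline and at 0.719 and 0.983 times under treatment, a difference of -1.54 on the log2 scale. Once the length trend was removed, the log2 fold changes were 0.78 for Oma1 and -0.38 for Opa1.

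**Figure D3:**
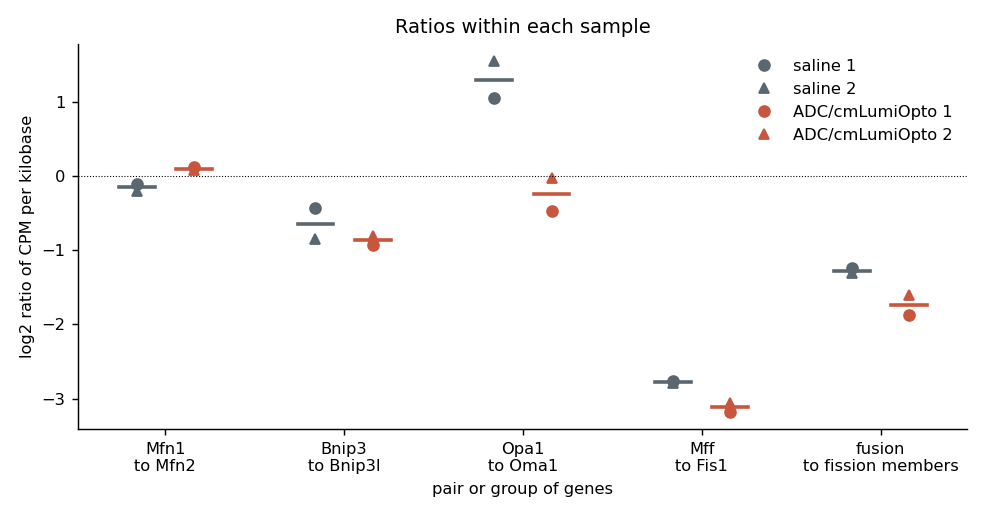
Log2 ratio of CPM per kilobase within each sample for 4 pairs of genes and for the summed fusion to fission genes, with bars for the group means and a dotted line at equal levels. Opa1 to Oma1 had the largest difference in group means, from 1.29 in the saline samples to -0.25 in the ADC/cmLumiOpto samples. It also had the largest spread within groups, and the Bnip3 to Bnip3l ratios overlapped.

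Of 17 tested genes among 18 other fusion and inner membrane genes, 1 was at an unadjusted p under 0.05, Oma1, where 23.2% of all genes were. The median log2 fold change was 0.10, and it was -0.057 without ADC/cmLumiOpto sample 1 and 0.23 without sample 2. The prohibitin Phb, a scaffold of the inner membrane, was at 148 and 145 CPM under saline and 219 and 159 CPM under treatment. Chchd6, a part of the cristae junction complex, was at 16.1 and 13.1 CPM against 21.3 and 18.2 CPM. Both lay higher in the treated pair, with log2 fold changes of 0.36 and 0.43 and adjusted p values of 0.311 and 0.308 in edgeR. They were named for a small p, and 28.1% of all genes likewise lay higher in both treated samples. In the list, 5 of the 17 tested genes lay higher and 1 lower without overlap of the groups. Phb was at 0.11 without ADC/cmLumiOpto sample 1 and 0.57 without sample 2. Pld6 was not tested.

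Of 18 tested genes among 19 other fission and transport genes, 1 was at an unadjusted p under 0.05, Inf2, and it was lower (background 12.2% lower, 23.2% in either direction). Inf2, a formin that assembles actin at fission sites, was at 208 and 284 CPM under saline and 136 and 154 CPM under treatment. Its log2 fold change was -0.76 (95% interval -1.25 to -0.28), and its adjusted p was 0.123 by edgeR's quasi-likelihood test, 0.045 by the exact test and 0.020 by DESeq2 (0.0040 to 0.534 over all alternatives). The Drp1 adaptor gene Mief1 (log2 fold change -0.31, adjusted p = 0.306) and the transport GTPase gene Rhot2 (0.46, adjusted p = 0.277) did not pass in edgeR. The median of the list was -0.16. It came to 0.013 with the length trend removed, to -0.098 without saline sample 2 and to -0.25 without saline sample 1. Gdap1 was not tested.

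All 23 other mitophagy genes were tested, with 1 at an unadjusted p under 0.05, Nbr1, where 23.2% of all genes were. The median log2 fold change was 0.047, and it was -0.052 without saline sample 1, -0.15 without ADC/cmLumiOpto sample 1 and -0.015 without ADC/cmLumiOpto sample 2. The autophagy receptor gene Nbr1 was at 165 and 176 CPM under saline and 117 and 126 CPM under treatment. Its log2 difference was -0.49 (adjusted p = 0.149 in edgeR). Sqstm1, which encodes the receptor p62, was at 619 and 775 CPM against 531 and 528 CPM, and the deubiquitinase gene Usp8 at 89.8 and 90.0 CPM against 68.7 and 72.9 CPM. Their log2 fold changes were -0.40 and -0.34 (adjusted p = 0.239 and 0.243 in edgeR). Nbr1, Sqstm1 and Usp8, named for the smallest p in the list, lay lower in both treated samples, as did 28.8% of all genes. Over the list, 10 of the 23 genes lay lower and 4 higher without overlap of the groups. Without saline sample 2, Sqstm1 was at -0.22.

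Among 30 core autophagy genes, 5 were higher and 2 lower at an unadjusted p under 0.05, beside 11.0% and 12.2% of all genes. Wipi1, which binds the phosphoinositide of nascent autophagosomes, was at 71.3 and 77.4 CPM under saline and 32.2 and 46.7 CPM under treatment. Its log2 fold change was -0.91 (95% interval -1.43 to -0.40), and its adjusted p was 0.123 by edgeR's quasi-likelihood test, 0.017 by the exact test and 0.011 by DESeq2 (0.00081 to 0.407 over all alternatives). Atg3, the enzyme that attaches LC3 to lipid, was at 33.7 and 35.7 CPM against 54.8 and 57.9 CPM, higher by 0.70 on the log2 scale (adjusted p 0.117, 0.032 and 0.021 in the same tests of edgeR and DESeq2, 0.021 to 0.417 over all alternatives). For Atg101, a subunit of the initiating kinase complex, the log2 fold change was 0.73 (adjusted p = 0.136 in edgeR). The 5 genes of the LC3 and GABARAP family (Map1lc3a, Map1lc3b, Gabarap, Gabarapl1, Gabarapl2), singled out after their values were seen, lay 0.27 to 0.65 higher on the log2 scale, and 28.1% of all genes were, like them, higher in both treated samples. They were picked for this pattern, and nothing is read from their count. With the length trend removed 4 of these 5 were above 0, in a range of -0.034 to 0.52.

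Of 16 genes that stand for mitochondrial content, 0 were at an unadjusted p under 0.05 in edgeR, where 23.2% of all genes were. The exact test and DESeq2 also called 0 of the 16, beside 7.64% of all genes and 9.99% of those with an adjusted p in DESeq2. The median log2 fold change was -0.045, and it was -0.13 without ADC/cmLumiOpto sample 1 and 0.059 without sample 2. Citrate synthase (Cs) was at 202 and 205 CPM under saline and 153 and 168 CPM under treatment, and the outer membrane channel Vdac1 at 360 and 340 CPM against 296 and 269 CPM. Cytochrome c (Cycs) was at 57.8 and 51.8 CPM against 93.9 and 60.1 CPM. Their log2 fold changes were -0.34, -0.31 and 0.49, with adjusted p values of 0.242, 0.280 and 0.268 in edgeR. Cycs was at 0.13 without ADC/cmLumiOpto sample 1 and 0.77 without sample 2. Of 15 tested biogenesis genes, 2 were higher and 1 lower at an unadjusted p under 0.05 in edgeR. Over all genes these shares were 11.0% and 12.2%. The nuclear receptor gene Esrra (log2 fold change 0.43) and the mitochondrial DNA polymerase gene Polg (0.51) were the higher ones. The transcription factor gene Gabpa (-0.45) was the lower one. In this order, their adjusted p values were 0.174, 0.196 and 0.187 in edgeR. The median was 0.035, and Ppargc1a was not tested.

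Bnip3 and Bnip3l were set beside 16 other genes of the hypoxia response, Hif1a itself among them. Of these, 7 were lower and 0 higher at an unadjusted p under 0.05 (background 12.2% and 11.0%). DESeq2 called 6 of the 16 and the exact test 4, all lower. In either direction, DESeq2 called 9.99% of the genes with an adjusted p and the exact test 7.64% of all genes. The median log2 fold change of the list was -0.50, and it was -0.27 without saline sample 1. Ndrg1, a stress-induced gene, was at 649 and 390 CPM under saline and 248 and 257 CPM under treatment. The kinase gene Pdk1, which restrains pyruvate entry into mitochondria, was at 49.3 and 53.5 CPM against 22.7 and 33.1 CPM, and the carbonic anhydrase gene Car9 at 47.5 and 60.9 CPM against 34.2 and 29.9 CPM. On the log2 scale the differences were -1.04, -0.88 and -0.76, and edgeR's quasi-likelihood test gave all 3 an adjusted p = 0.123. The exact test gave 0.016, 0.026 and 0.039 and DESeq2 0.0039, 0.023 and 0.036, and over all alternatives the adjusted p ranged from 1.0e-05 to 0.245 for Ndrg1, 0.0024 to 0.440 for Pdk1 and 0.011 to 0.493 for Car9. In Ndrg1 as in Bnip3, saline sample 1 held the highest value, and without it Ndrg1 was at -0.64. The log2 fold changes of Bnip3 (-0.29) and Bnip3l (-0.047) lay nearer to 0 than the median of this list.

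**Figure D4:**
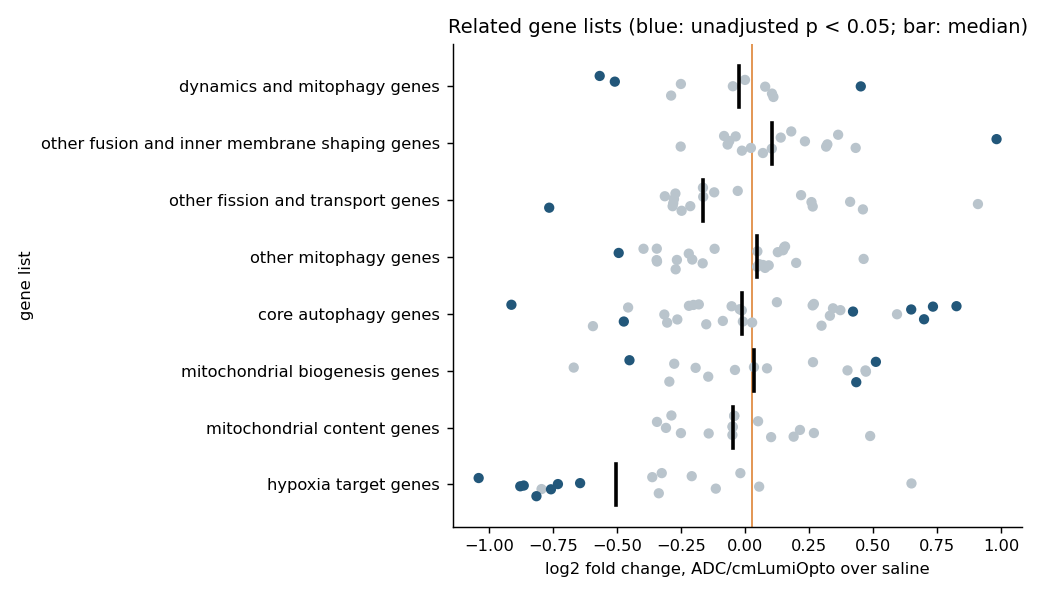
Log2 fold change, ADC/cmLumiOpto over saline, of each tested gene in the 10 dynamics and mitophagy genes and 7 related lists, with blue points for an unadjusted p under 0.05 in edgeR, black bars for the medians and an orange line for the median of all tested genes (0.028). The medians lay between -0.16 and 0.10 apart from that of the hypoxia targets at -0.50, which was -0.27 without saline sample 1.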

How the data were processed

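Messenger RNA was measured in 2 saline and 2 ADC/cmLumiOpto samples, for which the authors deposited whole-number counts per gene that had not been normalized. Per the paper, reads were aligned with HISAT2 to GRCm38, whereas the submitters' processing notes list mm39 and both HISAT2 and TopHat2. Of 52073 identifiers shared with GENCODE M21 (GRCm38), 1472 had the same start and end in the table, so positions were taken from that annotation by identifier, and promoters from RefSeq. The program that counted the reads is not given in the sources used here. Whether counting used strand is not stated either. The 8 genes that overlap 5 of the 10 genes had at most 6 counts in any sample.

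Genes were kept by filterByExpr (minimum count 10, minimum total 15), which left 15320 genes, and compared with edgeR 4.0.16 in R 4.3.3 by TMM, glmQLFit and glmQLFTest, with Benjamini-Hochberg adjustment over all tested genes and a threshold of 0.05. Intervals are 95% intervals of the log2 fold change from the standard error and degrees of freedom of the fit. CPM are TMM-scaled. A floor of 3 counts corresponds to 0.152 to 0.197 CPM, for counting error only. Alternatives were DESeq2 1.42.0, the edgeR exact test, other scalings and filters, a replicate block, removal of a trend on gene length (lowess span 0.3), and each sample left out. On simulated data, 200 genes were changed by a log2 fold of 2. The quasi-likelihood fit recovered 100% of them, with 9 unchanged genes called among 15059 tested. The simulated samples varied less than the data, whose common biological coefficient of variation (spread between samples of a group) was 0.236. Differences as small as those of the 10 genes were not simulated, so the simulation does not show whether they could be found.

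The 10 genes and the related lists were chosen with earlier results of these data known. Named in each related list were the 3 tested genes with the smallest p, apart from genes said to be chosen after their values were seen. An item named by the rule is not reported here.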

Additional observations from a re-analysis of the deposited data

How the results depend on the processing

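The number of the 10 genes with an adjusted p under 0.05 was 0 under all 13 alternatives. Over all genes the count was 0 in edgeR's quasi-likelihood test, 1353 in DESeq2, 1170 in the edgeR exact test, 2259 of 25563 genes without the filter, and 0 to 218 with each sample left out (218 without saline sample 1). The paper's sequencing methods state no pairing of the samples. The deviations of same-numbered samples correlated at 0.099 over genes, which cannot settle pairing with 2 samples per group. A replicate block gave 607 genes and none of the 10. The number of the 10 genes at an unadjusted p under 0.05 was 3, but 1 with the length trend removed, and 0 to 3 with each sample left out (1 without saline sample 1, 0 without saline sample 2, 0 without ADC/cmLumiOpto sample 1). Opa1 kept its sign at -0.76 to -0.37, Dnm1l at -0.59 to -0.43 and Fis1 at 0.36 to 0.54 with each sample left out, where a lone sample is assumed to vary like the pair.

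The sign turned for 4 genes near 0. Mfn1 was at -0.0052 without the filter, -0.00059 with the replicate block and -0.059 to 0.054 with samples left out. Pink1 was at -0.048 and Fundc1 at -0.075 with the length trend removed, and with samples left out they ranged from -0.20 to 0.31 and from -0.11 to 0.29. Bnip3l was at 0.00017 by library size and 0.037 by upper quartile. The list medians moved by more than the replicate spread for other fission and transport genes (0.013 with the length trend removed), other mitophagy genes (0.13 by upper quartile, -0.044 with the length trend removed, -0.15 to 0.046 with samples left out) and mitochondrial content genes (-0.0012 by library size, 0.041 by upper quartile, -0.0063 with 10 counts in every sample, -0.017 for protein-coding genes, -0.13 to 0.059 with samples left out). The median of other fusion and inner membrane genes was at -0.057 to 0.23 and that of hypoxia genes at -0.70 to -0.27 with samples left out. The fusion to fission ratio differed by -0.30 without division by length and was not computed with the length trend removed. For the length trend and the scaling, the cause was not tested.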
